A study of Homo sapiens with 8 samples.

Results

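Cells raise cyclic AMP (cAMP) through receptors coupled to the G protein Gs, and 10 genes of this route were followed: AVPR2, the vasopressin V2 receptor; the adenylyl cyclases ADCY3, ADCY6, ADCY7 and ADCY9; the regulatory subunits PRKAR1A, PRKAR2A and PRKAR2B of protein kinase A (PKA); and its catalytic subunits PRKACA and PRKACB. They were chosen by name, as a Gs-coupled receptor and genes of cAMP synthesis and of the kinase that cAMP activates. Earlier results of these data were known at that point, so counts among them set beside all tested genes only describe. All 10 were found among the 62649 genes of the count tables, and all 10 were among the 17671 genes with enough counts to be tested. Poly-A RNA was sequenced from the colorectal adenocarcinoma lines SW620 and SW480, both carrying a fluorescent B8-mCherry immunoproteasome fusion. The 8 libraries form 4 groups of 2: SW620 with caffeine, SW620 control, SW480 with caffeine and SW480 control. For SW620 the protocols mention exposures of 72 hours (30, 60, 100, 250 and 500 µM caffeine) and of 28 days (125 µM), but the dose and time behind the sequenced RNA are stated for neither line. They name at least 2 biological replicates a group, without saying whether these were separate cultures grown on separate days, so that p-values measure the spread between these libraries. Each line stands for 1 tumour-derived culture, and a difference between the lines therefore rests on these 2 lines alone.

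As background, a Gs-coupled receptor that binds its ligand frees the Gs alpha subunit, which activates membrane adenylyl cyclases, and Gi alpha subunits inhibit several of them. The cAMP that is formed binds the regulatory subunits of the PKA holoenzyme and releases the catalytic subunits, which phosphorylate many proteins, among them the transcription factor CREB. AVPR2 is best known from the kidney collecting duct, where vasopressin acts through it to promote water reabsorption, while caffeine is known as an antagonist of adenosine receptors and, at higher concentrations, as an inhibitor of the phosphodiesterases that break cAMP down.

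Between 15760259 and 23269315 reads were assigned to genes per library. Levels are given as CPM, read counts scaled to the size of the library, and a gene without reads may still hold 3 counts (95% limit, counting error only), or 0.129 to 0.190 CPM depending on the library. Replicate 2 of SW480 with caffeine stood apart, since mitochondrial genes took 1.63% of its reads and 4.38% to 6.16% in the other libraries, and calls in SW480 that were lost without it are given with the adjusted p found then. Of 10 colorectal epithelial markers, 9 averaged at least 1 CPM in SW620 with caffeine, 8 in SW620 controls and 6 in each SW480 group. Their summed level was 12941 to 14347 CPM in SW620 with caffeine, 10713 to 10778 CPM in SW620 controls, 6563 to 6900 CPM in SW480 with caffeine and 4624 to 6015 CPM in SW480 controls. In SW620 the 12 fibroblast, leukocyte and endothelial markers summed to 59.8 to 62.6 CPM with caffeine and 46.6 to 49.0 CPM in controls. In SW480 they summed to 6.11 to 8.00 CPM with caffeine and 7.02 to 8.11 CPM in controls. Of the 12, 4 averaged at least 1 CPM in each SW620 group, 2 in SW480 with caffeine and 3 in SW480 controls. COL3A1 was at 0 in all 4 groups. The part of these marker levels in the results below was not tested.

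With caffeine, 2 of the 10 genes passed the test in SW620: AVPR2 fell and PRKAR1A rose. The test was edgeR's quasi-likelihood F test with Benjamini-Hochberg adjustment over all tested genes, and an adjusted p under 0.05 is called a change here. Over all tested genes 14.4% passed in SW620, 8.10% higher and 6.25% lower, so that a share of 2 in 10 is near this background. In SW480 only AVPR2 of the 10 passed, again lower, where 3.60% of all tested genes did, 1.67% higher and 1.93% lower. The log2 fold change was below 0 for 6 of the 10 genes in SW620 and for 9 in SW480. Its median was -0.19 over the 10 genes against -0.01 over all tested genes in SW620, and -0.17 against 0 in SW480. The caffeine and control libraries of SW620 did not overlap for 9 of the 10 genes, where 62.0% of all tested genes showed no overlap, and those of SW480 did not overlap for 4, where 43.0% of all tested genes showed none. Leaving out replicate 2 of SW480 with caffeine leaves 1 caffeine library in that line, so that only log2 fold changes are given here. That of AVPR2 was -1.14, and those of ADCY3, ADCY6, ADCY7, ADCY9, PRKACB, PRKAR1A and PRKAR2A lay between -0.42 and -0.11. PRKACA was at 0.07 and PRKAR2B, with few reads, at 0.82.

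**Figure D1:**
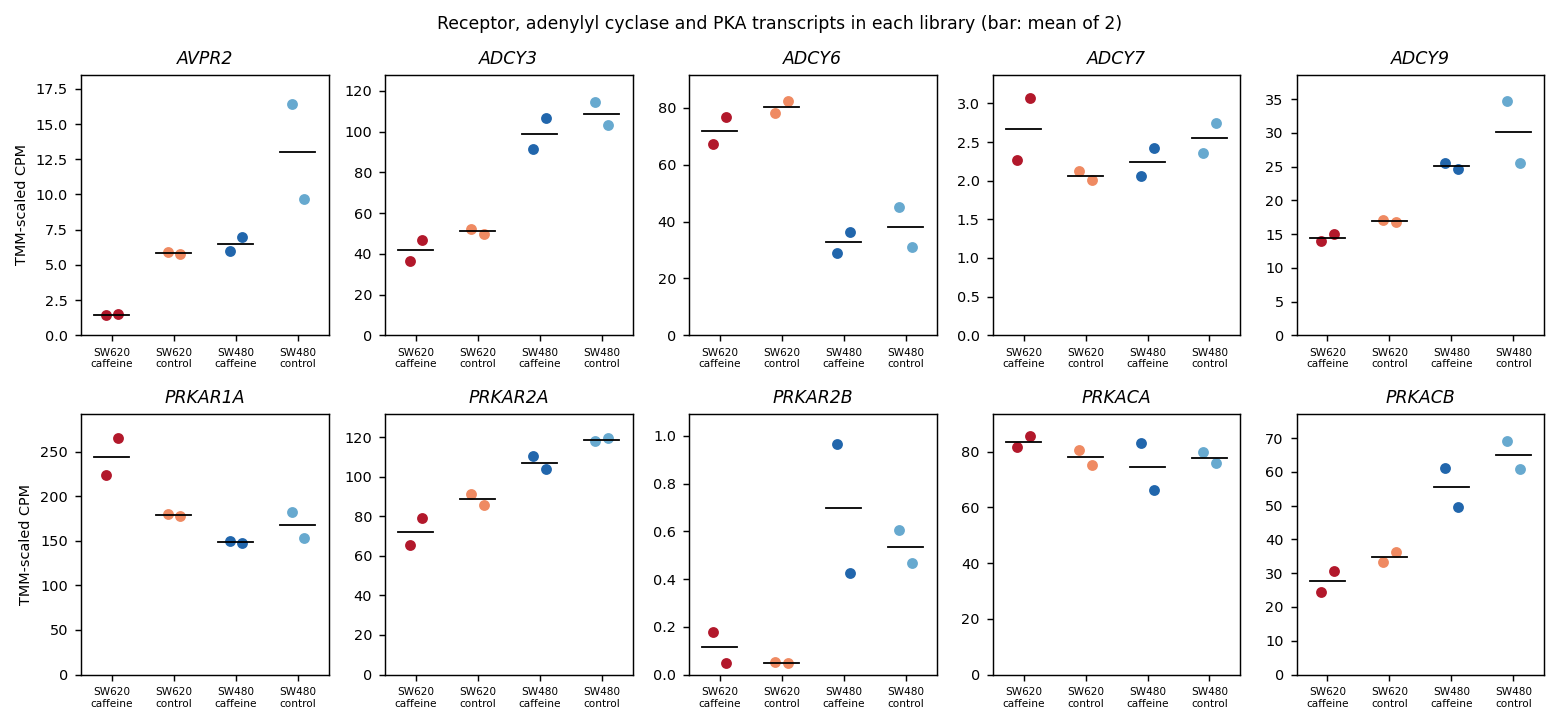
Level of each of the 10 genes in the 8 libraries. Each panel is 1 gene, the vertical axis is TMM-scaled CPM on a linear scale from 0, each point is 1 library and the bar is the mean of the 2 libraries of a group. AVPR2 lies lowest in the 2 SW620 caffeine libraries, at 1.43 and 1.51 CPM, and PRKAR1A highest in them, at 224 and 265 CPM.

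AVPR2 (ENSG00000126895) spans chrX:153902531-153907166 on the plus strand (GRCh38, GENCODE 29), and no other gene of that annotation shares exon bases with it. In SW620 it had 1.43 and 1.51 CPM with caffeine (24 and 30 reads), against 5.92 and 5.76 CPM in the controls (117 and 115 reads). In SW480 it had 5.99 and 6.98 CPM with caffeine (93 and 164 reads), against 16.4 and 9.69 CPM in the controls (271 and 166 reads). Both caffeine libraries lay below both controls in either line, and the SW480 controls were the farthest apart of all replicate pairs. The mean was 1.47 ± 0.06 CPM in SW620 with caffeine and 5.84 ± 0.11 CPM in its controls, and 6.48 ± 0.71 CPM in SW480 with caffeine and 13.04 ± 4.74 CPM in its controls (SD, n = 2 each). In these bulk samples fewer cells that express a gene and less RNA of it per cell cannot be told apart.

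The log2 fold change of AVPR2 with caffeine was -1.98 ± 0.28 in SW620 (SE; adjusted p = 0.000200, edgeR), and it lay between -2.02 and -1.94 with any 1 library left out. In SW480 it was -0.997 ± 0.219 (adjusted p = 0.0206, edgeR). That call was lost without SW480 caffeine replicate 1 (adjusted p = 0.0602), without SW480 caffeine replicate 2, the library with few mitochondrial reads (0.157), and without replicate 1 of the SW480 controls (0.235), where the log2 fold change was -0.57. The response in SW620 minus that in SW480 was -0.99 ± 0.36 (95% interval -1.76 to -0.22) and did not pass (adjusted p = 0.115, edgeR). Without SW480 control replicate 1, which held the highest AVPR2 level of the 8 libraries, it was -1.41 and passed (adjusted p = 0.0117, edgeR). Among the untreated lines AVPR2 was lower in SW620 than in SW480, by -1.16 ± 0.22 on the log2 scale (adjusted p = 0.000205, edgeR), and this held with each library left out in turn, from -1.52 to -0.74.

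RefSeq gives several start sites for AVPR2, and the bases before 2 of them are shown because this gene had the largest called caffeine response of the 10. The sequences are from RefSeq on GRCh38.p14, plus strand, 5′ to 3′. That of the upstream start, chrX:153902375-153902530, ends where the first annotated exon begins. This is short of the RefSeq start site at 153902625, and the bases between are not shown. For the downstream start, chrX:153904423-153904672, the 250 bases lie outside the annotated exons.
AVPR2 upstream start: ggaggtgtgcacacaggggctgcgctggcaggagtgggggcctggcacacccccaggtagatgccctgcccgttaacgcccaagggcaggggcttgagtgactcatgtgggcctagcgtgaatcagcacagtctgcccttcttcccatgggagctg
AVPR2 downstream start: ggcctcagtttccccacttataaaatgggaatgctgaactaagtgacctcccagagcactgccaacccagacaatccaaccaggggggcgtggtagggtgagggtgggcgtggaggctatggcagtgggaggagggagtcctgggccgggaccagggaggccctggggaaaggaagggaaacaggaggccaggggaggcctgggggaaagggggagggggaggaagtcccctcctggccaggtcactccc
Neither of them, nor any of the 3 AVPR2 windows in the table, held the cAMP response element TGACGTCA, an 8-base palindrome bound by CREB, or its 5-base part TGACG or CGTCA on either strand. That says only that these letters are absent from the windows.

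The gene next to AVPR2, ARHGAP4, lies at chrX:153907367-153934999 on the minus strand, so that the genes run towards each other. ARHGAP4 had 224 and 215 CPM in SW620 with caffeine, against 308 and 288 CPM in SW620 controls, and its log2 fold change was -0.44 ± 0.14 (adjusted p = 0.0407, edgeR). On the same strand, ARHGAP4 shares 8.62% of its exon bases with NAA10 and 1.79% with an unnamed gene. Its call in SW620 was lost with any of the 4 SW620 libraries left out (adjusted p 0.132 to 0.287). In SW480 ARHGAP4 had 261 and 357 CPM with caffeine, against 242 and 269 CPM in the controls, and did not pass (log2 fold change 0.27, adjusted p = 0.289, edgeR). On the other side of AVPR2 lies L1CAM, a neuronal adhesion molecule, which rose in SW620. It had 19.05 and 18.1 CPM with caffeine, against 6.68 and 4.71 CPM in the controls (log2 fold change 1.70 ± 0.17, adjusted p = 6.90e-06, edgeR). Among controls L1CAM was lower in SW620 than in SW480 (-3.64, adjusted p = 8.61e-12, edgeR). The unnamed gene that overlaps ARHGAP4 also shares 6.04% of the exon bases of L1CAM. Of the 6 genes taken around AVPR2, none other passed in SW620 and none passed in SW480, where 14.4% of all tested genes passed in SW620 and 3.60% in SW480.

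The ligand and both V1 receptors were at or near 0. AVP, the vasopressin precursor, had 1 read in 1 SW480 caffeine library and 1 read in 1 SW480 control, and none in SW620, while AVPR1A had none in any library and AVPR1B had 1 read, in 1 SW620 caffeine library. The oxytocin receptor OXTR was at 0.95 and 0.75 CPM in SW620 with caffeine and 0.81 and 0.90 CPM in SW620 controls, and at 1.42 and 1.58 CPM in SW480 with caffeine and 1.21 and 0.58 CPM in SW480 controls, with no call in either line. Of the 11 genes of the vasopressin receptor family and its kinases and arrestins, 6 were tested, and 1 of them, GRK6, a kinase that phosphorylates active receptors, rose in SW620, where 8.10% of all tested genes did (log2 fold change 0.51 ± 0.13, adjusted p = 0.0127, edgeR). GRK6 had 74.9 and 75.1 CPM in SW620 with caffeine, against 52.6 and 52.9 CPM in SW620 controls. Its call was lost with any of the 4 SW620 libraries left out (adjusted p 0.0585 to 0.124). None of the 6 passed in SW480.

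The 3 tested genes whose pattern over the 8 libraries was most like that of AVPR2 were PNPLA7, a lysophospholipase, ARHGAP9, and CCN1, a secreted matrix protein. Likeness was the root mean square difference in log2 CPM after each gene was centred on its own mean, and it was 0.25 for PNPLA7, 0.37 for ARHGAP9 and 0.37 for CCN1, where the 4 group means of AVPR2 spanned 3.01. The genes were picked by this measure, and the 8 libraries share their depth and scaling.

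Of the 4 cyclases none passed with caffeine in either line, and 3 differed between the untreated lines. ADCY3, a calmodulin-stimulated cyclase best known from olfactory cilia, had 36.5 and 46.9 CPM in SW620 with caffeine, against 52.1 and 49.9 CPM in SW620 controls. In SW480 it had 91.3 and 107 CPM with caffeine, against 115 and 103 CPM in the controls. The caffeine libraries lay below the controls in SW620 and overlapped with them in SW480, and every SW480 library lay above every SW620 library. The log2 fold change with caffeine was -0.29 ± 0.14 in SW620 (95% interval -0.59 to 0.02, adjusted p = 0.203, edgeR) and -0.14 ± 0.14 in SW480 (-0.43 to 0.16, adjusted p = 0.632, edgeR), so that neither passed. Among controls ADCY3 was lower in SW620 than in SW480, by -1.09 ± 0.14 on the log2 scale (adjusted p = 3.56e-06, edgeR). Of its exon bases 24.6% lie opposite those of CENPO, a centromere protein gene, which was also lower in the SW620 than in the SW480 controls (log2 fold change -1.16, adjusted p = 1.32e-06, edgeR). The strand setting of the counting is not given in the sources used here, and without it reads of the shared bases cannot be told apart.

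ADCY6, a cyclase inhibited by calcium and by Gi, ran the other way between the lines. It had 67.1 and 76.9 CPM in SW620 with caffeine, against 78.2 and 82.2 CPM in SW620 controls, and 28.96 and 36.4 CPM in SW480 with caffeine, against 45.1 and 31.2 CPM in SW480 controls. Every SW620 library was above every SW480 library, and the caffeine libraries lay below the controls in SW620 and overlapped with them in SW480. The SW620 controls exceeded the SW480 controls by 1.07 ± 0.17 on the log2 scale (adjusted p = 2.48e-05, edgeR). With caffeine the log2 fold change was -0.16 (95% interval -0.50 to 0.19) in SW620 and -0.22 (-0.57 to 0.14) in SW480, and neither passed (adjusted p = 0.577 and 0.509, edgeR).

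ADCY9, a widely expressed cyclase that responds poorly to forskolin, had 13.9 and 14.9 CPM in SW620 with caffeine, against 17.0 and 16.7 CPM in SW620 controls, and 25.5 and 24.7 CPM in SW480 with caffeine, against 34.7 and 25.6 CPM in SW480 controls. The caffeine libraries lay below the controls in both lines, in SW480 by a narrow gap. Neither response passed, with log2 fold changes of -0.23 (95% interval -0.56 to 0.11, adjusted p = 0.385, edgeR) in SW620 and -0.26 (-0.58 to 0.05, adjusted p = 0.353, edgeR) in SW480. Among controls ADCY9 was lower in SW620, by -0.83 ± 0.15 on the log2 scale (adjusted p = 0.000148, edgeR). ADCY7, known chiefly from blood cells, was the lowest of the 4 cyclases, at 2.26 and 3.07 CPM in SW620 with caffeine and 2.13 and 2.005 CPM in SW620 controls, and 2.06 and 2.43 CPM in SW480 with caffeine and 2.36 and 2.74 CPM in SW480 controls. The caffeine libraries were above the controls in SW620, and the groups overlapped in SW480. None of the comparisons called it, and with 32 to 61 reads a library the interval of its log2 fold change ran from -0.18 to 0.94 in SW620. Of its exon bases 41.6% lie opposite BRD7, a bromodomain gene at a mean of 141 CPM that was called in no comparison.

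Of the regulatory subunits, PRKAR1A was the member that rose. It encodes the type I alpha subunit, the most broadly expressed one, whose loss causes the Carney complex. In SW620 it had 224 and 265 CPM with caffeine, against 180.2 and 178 CPM in the controls, and in SW480 149 and 148 CPM with caffeine, against 182 and 153 CPM in the controls. The groups did not overlap in either line, and the caffeine libraries were the higher ones in SW620 and the lower ones in SW480. The log2 fold change was 0.45 ± 0.12 in SW620 (adjusted p = 0.0225, edgeR), and the call was lost without SW620 caffeine replicate 2 (adjusted p = 0.250), SW620 control replicate 1 (0.158) or SW620 control replicate 2 (0.182). In SW480 it was -0.17 ± 0.12 and did not pass (95% interval -0.44 to 0.09, adjusted p = 0.469, edgeR).

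The response of PRKAR1A in SW620 minus that in SW480 was 0.62 ± 0.18 on the log2 scale (95% interval 0.25 to 0.99), and it passed the test of the difference (adjusted p = 0.0421, edgeR). It was the only one of the 10 genes to do so, where 6.71% of all tested genes passed, 4.24% with the higher and 2.47% with the lower response in SW620. The call was lost when replicate number entered the fit as a block (adjusted p = 0.0574). It was also lost when the fit left out replicate 1 (0.0557) or 2 (0.0880) of SW480 with caffeine, replicate 1 of the SW480 controls (0.0967), replicate 2 of SW620 with caffeine (0.198), or replicate 1 (0.154) or 2 (0.173) of the SW620 controls. Between the untreated lines PRKAR1A did not pass (log2 fold change 0.10, 95% interval -0.17 to 0.36, adjusted p = 0.515, edgeR). Of its exon bases 8.00% are shared on the same strand with an unnamed gene that had at most 32 reads in a library.

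PRKAR1A was also the only one of the 8 genes present in the RefSeq promoter table (ADCY6 and ADCY9 were not) with a full TGACGTCA in the 250 bases before a start site. It lies at chr17:68512381-68512388, 42 to 49 bases before the start site at 68512430, and the bases up to and including it are shown because they carry this match, in capitals (RefSeq, GRCh38.p14, chr17:68512180-68512388, plus strand, 5′ to 3′).
PRKAR1A: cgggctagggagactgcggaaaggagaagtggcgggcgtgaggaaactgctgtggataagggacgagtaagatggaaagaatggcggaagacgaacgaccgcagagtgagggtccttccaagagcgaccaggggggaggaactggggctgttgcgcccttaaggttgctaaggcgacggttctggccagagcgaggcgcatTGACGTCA
Of all 35116 windows of that length 1.65% hold the element, as do 2.03% of the 27305 genes in the table. The 5-base part TGACG or CGTCA, which is contained in the full element, was found in 4 of the 8 genes (ADCY3, PRKACA, PRKACB and PRKAR1A), against 24.9% of all genes. The shares per gene are not like for like, since genes with more windows have more room for a match. PRKAR1A and PRKACB have 5 windows each. Of these, 1 in PRKAR1A held the full element, and 2 in PRKAR1A and 1 in PRKACB held the 5-base part. These are matches of letters, and no binding was measured.

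PRKAR2A, the type II alpha subunit that A-kinase anchoring proteins tether to membranes and the cytoskeleton, had 65.4 and 79.0 CPM in SW620 with caffeine, against 91.5 and 85.7 CPM in SW620 controls. In SW480 it had 110.4 and 104 CPM with caffeine, against 118 and 119 CPM in the controls. The caffeine libraries lay below the controls in both lines without overlap. The log2 fold change was -0.29 ± 0.13 in SW620 (95% interval -0.56 to -0.03, adjusted p = 0.134, edgeR) and -0.15 ± 0.12 in SW480 (-0.41 to 0.12, adjusted p = 0.551, edgeR), and neither passed. In a fit of the 4 SW620 libraries alone it passed (-0.28, adjusted p = 0.0465, edgeR), but that fit called 4617 genes in all, against 2537 in the main fit. Among controls it was lower in SW620, by -0.42 ± 0.13 on the log2 scale (adjusted p = 0.00713, edgeR), a call that was lost without SW620 control replicate 2 (0.0814).

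PRKAR2B, the type II beta subunit known from brain and fat, was close to the floor. It had 3 and 1 reads in SW620 with caffeine and 1 and 1 in SW620 controls, and 15 and 10 reads in SW480 with caffeine and 10 and 8 in SW480 controls. The SW620 controls had 2 reads in all against 18 in the SW480 controls, a ratio of 0.0959 per assigned read (95% interval 0.0108 to 0.401, counting error only), and the lower level in SW620 passed the test (adjusted p = 0.00415, edgeR). With caffeine the ratio was 2.14 (0.307 to 23.7) in SW620 and 1.21 (0.634 to 2.35) in SW480, and neither response passed. PRKAR1B, the type I beta subunit best known from neurons and not one of the 10, was abundant in both lines. It had 74.5 and 71.3 CPM in SW620 with caffeine and 97.4 and 89.8 CPM in SW620 controls, and 212 and 259 CPM in SW480 with caffeine and 179 and 235 CPM in SW480 controls. It was lower in SW620 than in SW480 controls (log2 fold change -1.14 ± 0.14, adjusted p = 2.23e-06, edgeR) and its caffeine responses did not pass (-0.36 in SW620, adjusted p = 0.105, and 0.19 in SW480, adjusted p = 0.494, edgeR).

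Of the catalytic subunits, PRKACA varied least of the 10 genes, with group means that spanned 0.17 in log2 CPM. This main catalytic subunit had 81.6 and 85.7 CPM in SW620 with caffeine, against 80.7 and 75.4 CPM in SW620 controls, and 83.2 and 66.2 CPM in SW480 with caffeine, against 80.1 and 75.8 CPM in SW480 controls. The SW620 caffeine libraries lay just above their controls, and the SW480 groups overlapped. Its log2 fold change was 0.10 (95% interval -0.18 to 0.38) with caffeine in SW620, -0.06 (-0.34 to 0.22) in SW480 and 0.00 (-0.28 to 0.28) for SW620 over SW480 controls, and none passed (adjusted p = 0.672, 0.841 and 0.990, edgeR). PRKACB, the second catalytic subunit, had 24.5 and 30.7 CPM in SW620 with caffeine, against 33.2 and 36.2 CPM in SW620 controls. In SW480 it had 61.2 and 49.7 CPM with caffeine, against 69.2 and 60.9 CPM in the controls. The caffeine libraries were below the controls in SW620 without overlap, and in SW480 the groups overlapped. Neither response passed (log2 fold change -0.33 ± 0.15, 95% interval -0.65 to -0.01, adjusted p = 0.168 in SW620, and -0.23 ± 0.15, -0.54 to 0.08, adjusted p = 0.401 in SW480, edgeR). PRKACB was lower in SW620 than in SW480 controls, by -0.91 ± 0.15 on the log2 scale (adjusted p = 4.73e-05, edgeR).

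By the measure of likeness used for AVPR2, the genes nearest to ADCY3 over the 8 libraries were SLC30A1, PLEKHH1 and C6orf120 (0.101 to 0.103), and those nearest to ADCY6 were AGAP4, PTER and HECTD4 (0.103 each). The nearest to ADCY9 were OSBPL1A, PAXIP1 and NAPEPLD (0.0559 to 0.0647). For PRKACB they were SLC25A40, BMP8A and CRTC3, a coactivator of CREB (0.0560 to 0.0685), and for PRKAR2B, at its few reads, SPA17, S100A11 and KCNJ5-AS1 (0.236 to 0.267). The group means of the other 4 genes spanned less than 1 in log2 CPM, and no such genes are named for them.

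**Figure D2:**
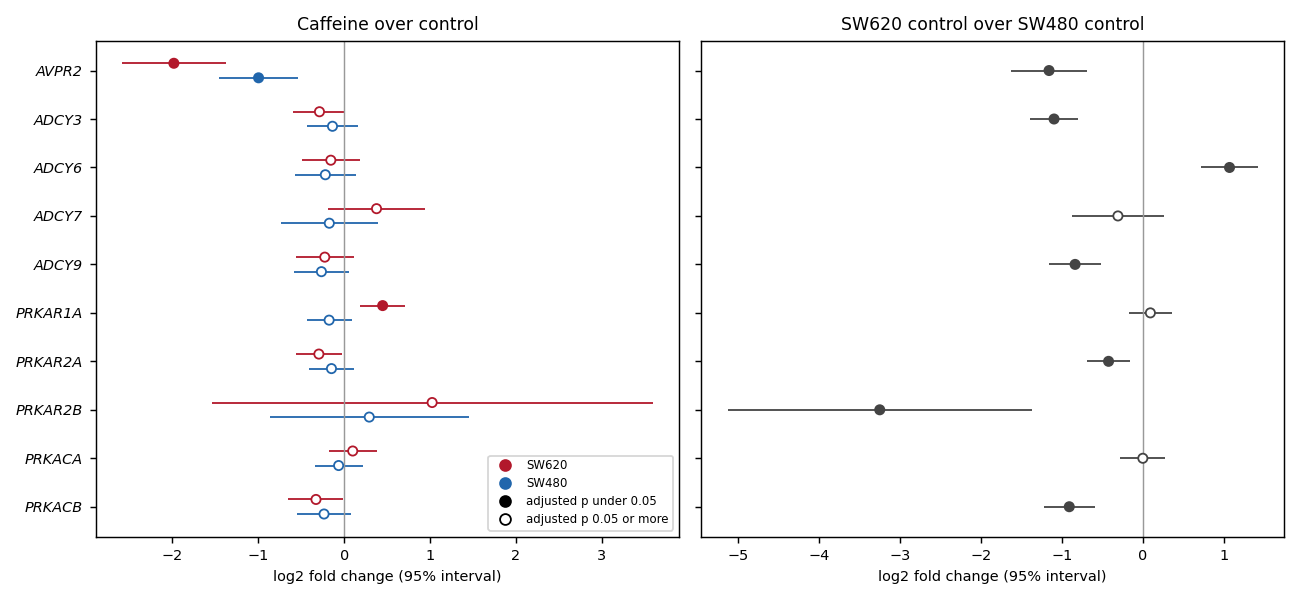
Log2 fold change of the 10 genes with its 95% interval, caffeine over control in SW620 and in SW480 (left) and SW620 controls over SW480 controls (right). Points are edgeR estimates from all 8 libraries, filled where the adjusted p was under 0.05: AVPR2 in both lines and PRKAR1A in SW620 on the left, and 7 genes on the right, of which ADCY6 alone lies above 0.

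Between the untreated lines 7 of the 10 genes passed, where 65.6% of all tested genes did. ADCY6 was higher in SW620, and ADCY3, ADCY9, AVPR2, PRKAR2A, PRKAR2B and PRKACB were lower, where 33.0% of all tested genes were higher and 32.6% lower. The median log2 fold change was -0.63 over the 10 genes and 0.03 over all tested genes. The control libraries of the lines did not overlap for 8 of the 10 genes, where 83.4% of all tested genes showed no overlap. These controls are also those of the caffeine comparisons.

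Levels per length show which gene led each class. Per kb of exon, ADCY6 took 49.4% of the summed level of the 10 cyclase genes in SW620 with caffeine and 47.4% in SW620 controls, and 16.8% in SW480 with caffeine and 17.4% in SW480 controls. ADCY3 took 39.5% in SW620 with caffeine and 41.9% in SW620 controls, and 71.0% in SW480 with caffeine and 69.7% in SW480 controls. By this measure ADCY3 came first in SW480 and ADCY6 in SW620, but the order in SW620 depended on how bases shared with other genes, such as CENPO, were treated. Over exon bases shared with no other counted gene, as if reads on shared bases had not been counted, ADCY3 had 44.6% and ADCY6 45.1% in SW620 with caffeine, and ADCY3 had 47.1% and ADCY6 43.2% in SW620 controls, while ADCY3 kept 75.4% in SW480 with caffeine and 74.2% in SW480 controls. This calculation was added after the data were seen, and the order of ADCY3 and ADCY6 in SW620 is therefore not settled by these counts. ADCY9 made up 8.06% in SW620 with caffeine and 8.11% in SW620 controls, and 10.6% in SW480 with caffeine and 11.2% in SW480 controls, while ADCY7 stayed between 1.13% and 1.77% in the 4 groups.

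Among the regulatory subunits the leading gene also differed between the lines. PRKAR1A took 56.8% of the summed level per kb in SW620 with caffeine (55.3% and 58.3% in the 2 libraries) and 43.4% in SW620 controls (42.7% and 44.2%). In SW480 it took 24.1% with caffeine (22.8% and 25.5%) and 27.9% in the controls (24.2% and 31.6%), where PRKAR1B led with 57.8% with caffeine and 51.8% in the controls. PRKAR1B took 25.9% in SW620 with caffeine and 34.5% in SW620 controls. PRKACA led the catalytic subunits everywhere, with 76.8% in SW620 with caffeine, 71.1% in SW620 controls, 59.6% in SW480 with caffeine and 56.7% in SW480 controls, and PRKACB made up nearly all of the rest. The leading gene was the same in all 12 pairs of class and group with the longest transcript in place of all exons, and in 11 of the 12 over unshared exon bases, the exception being the cyclases in SW620 controls. These shares were not tested.

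**Figure D3:**
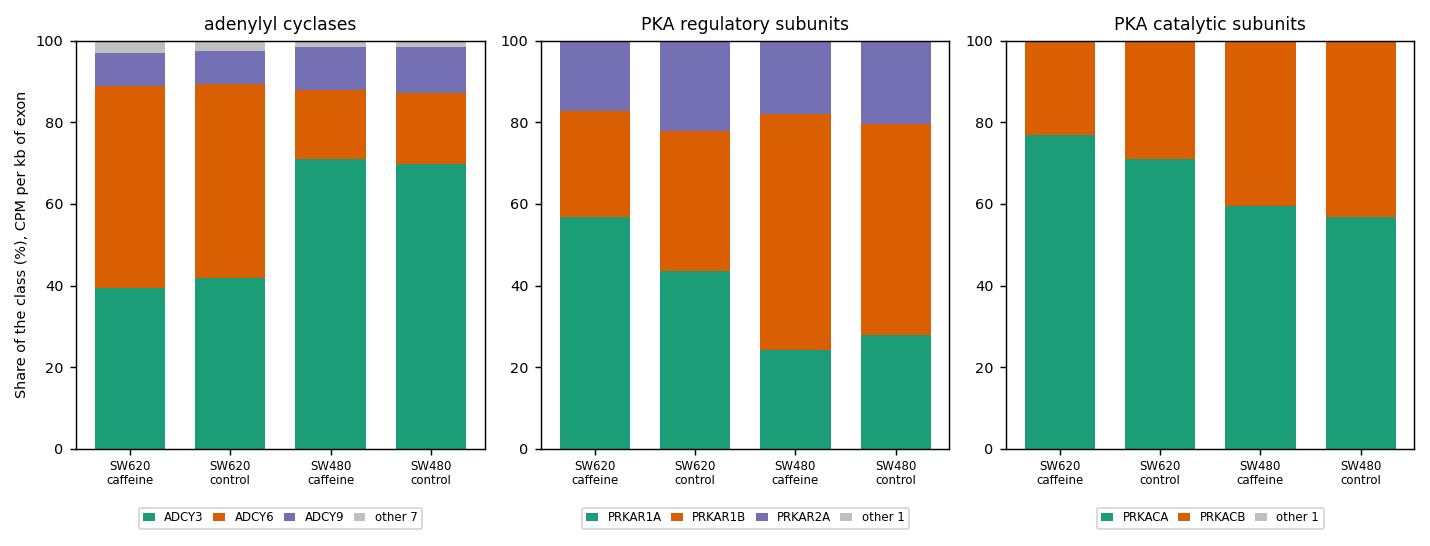
Share of each gene in the summed level of its class, in TMM-scaled CPM per kb of exon, as the mean of the 2 libraries of a group. The bars reach 100% and show, with all exon bases, ADCY6 and PRKAR1A leading in SW620 (over unshared bases ADCY3 passes ADCY6 in SW620 controls), ADCY3 and PRKAR1B leading in SW480, and PRKACA leading in all 4 groups.

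The genes that act before and after these 10 were taken from lists of cAMP signalling, also chosen with earlier results of these data known. Their counts stand beside 14.4% of all tested genes called in SW620 (8.10% higher, 6.25% lower) and 3.60% in SW480 (1.67% higher, 1.93% lower). Of the other Gs-coupled receptors 11 of 35 were tested, and GIPR, the receptor for the gut hormone GIP, moved in opposite directions. GIPR had 17.1 and 13.9 CPM in SW620 with caffeine, against 6.83 and 6.87 CPM in SW620 controls (log2 fold change 1.17 ± 0.17, adjusted p = 0.000245, edgeR). In SW480 it had 5.02 and 6.004 CPM with caffeine, against 12.6 and 11.2 CPM in the controls (-1.10 ± 0.18, adjusted p = 0.00377, edgeR). The difference of 2.27 ± 0.25 passed (adjusted p = 4.45e-05, edgeR), and no call on GIPR was lost with a library left out. ADORA2B, an adenosine receptor of the kind caffeine blocks, fell in SW480, with 10.4 and 7.66 CPM with caffeine against 15.6 and 18.7 CPM in the controls (-0.94 ± 0.17, adjusted p = 0.00811, edgeR), a call lost without SW480 caffeine replicate 2 (0.142). In SW620 it had 20.8 and 19.4 CPM with caffeine, against 15.3 and 14.4 CPM in the controls, and did not pass (0.43 ± 0.16, adjusted p = 0.0869, edgeR), while the difference between the lines did (1.37 ± 0.24, adjusted p = 0.00218, edgeR).

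Of the 6 Gs and Gi alpha subunits, GNAI1, which inhibits cyclases, fell in SW620 and rose in SW480. It had 23.2 and 23.5 CPM in SW620 with caffeine, against 37.0 and 40.2 CPM in SW620 controls (log2 fold change -0.73 ± 0.13, adjusted p = 0.00118, edgeR). In SW480 it had 187 and 204 CPM with caffeine, against 128 and 144 CPM in the controls (0.52 ± 0.12, adjusted p = 0.0259, edgeR). The SW480 call was lost in a fit of the 4 SW480 libraries alone (0.0727) and on leaving out replicate 2 of SW480 with caffeine (0.231), replicate 1 of the SW480 controls (0.132), or replicate 1 (0.0603) or 2 (0.0595) of the SW620 controls, and the difference of -1.25 ± 0.18 passed (adjusted p = 0.000418, edgeR). GNAI3, another inhibitory subunit, rose in SW620 (0.42 ± 0.12, adjusted p = 0.0233, edgeR), a call lost with any of the 4 SW620 libraries left out (0.0597 to 0.196). GNAS, which encodes Gs alpha, passed with caffeine in neither line, at 765 and 695 CPM in SW620 with caffeine and 791 and 734 CPM in SW620 controls, and 3161 and 3032 CPM in SW480 with caffeine and 2906 and 2983 CPM in SW480 controls.

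Of the 2 other cyclases and the 5 other PKA subunits and PKA inhibitors that were tested, none passed with caffeine in either line. Of 17 tested A-kinase anchoring proteins, which hold PKA near its substrates, 5 rose and 1 fell in SW620, where 8.10% of all tested genes rose and 6.25% fell, and none passed in SW480, where 3.60% of all tested genes did. AKAP12, a scaffold for PKA and protein kinase C, had 737 and 754 CPM in SW620 with caffeine, against 71.9 and 71.6 CPM in SW620 controls (log2 fold change 3.38 ± 0.15, adjusted p = 4.11e-10, edgeR). EZR, the membrane linker ezrin, rose by 0.64 ± 0.11 (adjusted p = 0.000951, edgeR) and PALM2AKAP2 by 0.53 ± 0.15 (adjusted p = 0.0235, edgeR), and the PALM2AKAP2 call was lost without SW620 caffeine replicate 2 (0.215), SW620 control replicate 1 (0.141) or SW620 control replicate 2 (0.177). AKAP13 (0.53, adjusted p = 0.0472) and ACBD3 (0.41, adjusted p = 0.0494, edgeR) complete the risen ones and are named after their values were seen. These 2 calls lie just under the threshold and were not followed with libraries left out or under the other alternatives. AKAP5, a synaptic anchor, fell by 1.25 on the log2 scale, with 12 and 15 reads in SW620 with caffeine against 36 and 34 in SW620 controls (adjusted p = 0.0220, edgeR), and its call was lost with any of the 4 SW620 libraries left out (0.110 to 0.160) and with DESeq2 (0.0933).

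Of 10 tested genes that CREB is known to induce, 4 rose and none fell in SW620, against 8.10% of all tested genes that rose and 6.25% that fell, and none of these passed in SW480, against 3.60% of all tested genes. AREG, a ligand of the EGF receptor, had 47.5 and 38.4 CPM in SW620 with caffeine, against 8.55 and 8.57 CPM in SW620 controls (log2 fold change 2.32 ± 0.18, adjusted p = 3.70e-07, edgeR). AREG was far lower in SW480, with SW620 controls above SW480 controls by 6.48 on the log2 scale (adjusted p = 5.48e-10, edgeR). Its missing call in SW480 therefore says little, and it did not pass the test of the difference between the lines. The clock gene PER1 had 30.2 and 26.7 CPM in SW620 with caffeine, against 9.51 and 10.5 CPM in SW620 controls (1.50 ± 0.15, adjusted p = 4.67e-06, edgeR), and the nuclear receptor NR4A1 had 157 and 201 CPM in SW620 with caffeine, against 78.6 and 88.0 CPM in SW620 controls (1.10 ± 0.15, adjusted p = 0.000130, edgeR). FOS, an immediate early gene, rose by 0.34 ± 0.11 (adjusted p = 0.0485, edgeR), a call lost with any of the 4 SW620 libraries left out (0.145 to 0.334), with no filter on low counts (0.0836) and with the replicate block (0.0786). The 8 tested members of the CREB family and its coactivators passed in neither line.

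Of the 7 tested cAMP effectors other than PKA and cAMP exporters, 1 rose and 2 fell in SW620, where 14.4% of all tested genes passed, and 2 fell in SW480, where 1.93% of all tested genes fell. RAPGEF3, the exchange factor EPAC1 that cAMP activates directly, had 7.02 and 9.21 CPM in SW620 with caffeine, against 4.86 and 4.66 CPM in SW620 controls (log2 fold change 0.78 ± 0.18, adjusted p = 0.00957, edgeR). Its call was lost without SW620 caffeine replicate 2 (0.154), SW620 control replicate 1 (0.0675) or SW620 control replicate 2 (0.0948). The exporters ABCC4 (-0.50 ± 0.14, adjusted p = 0.0268, edgeR) and ABCC5 (-0.54 ± 0.16, adjusted p = 0.0281, edgeR) fell in SW620. The ABCC4 call was lost with any of the 4 SW620 libraries left out (0.0667 to 0.350), and the ABCC5 call without SW620 caffeine replicate 1 (0.273), SW620 control replicate 1 (0.124) or SW620 control replicate 2 (0.207). In SW480 the exchange factors RAPGEF2 (-0.87 ± 0.19, adjusted p = 0.0192, edgeR) and RAPGEF4 (-0.78 ± 0.16, adjusted p = 0.0174, edgeR) fell, and both calls were lost without SW480 caffeine replicate 2 (0.215 for RAPGEF2 and 0.198 for RAPGEF4) and without SW480 control replicate 1 (0.148 for RAPGEF2 and 0.0967 for RAPGEF4).

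**Figure D4:**
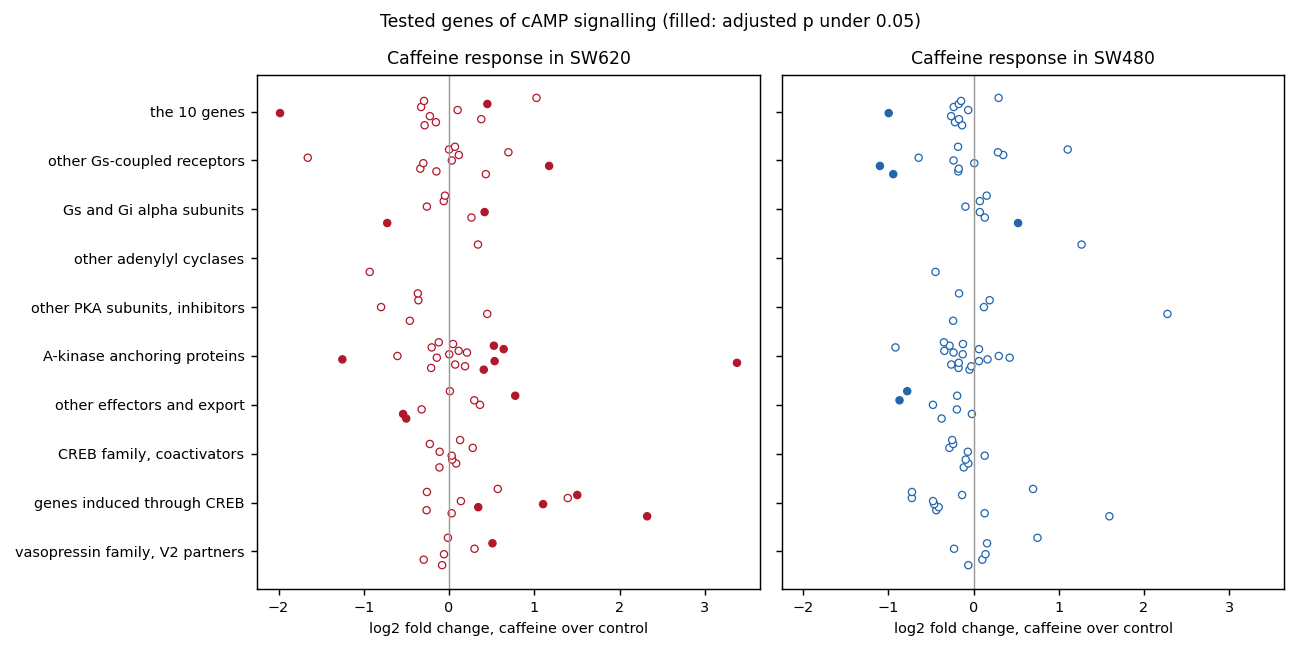
Log2 fold change with caffeine of the tested genes of cAMP signalling in SW620 (left) and SW480 (right), on the same scale. Each point is 1 gene, filled where the adjusted p was under 0.05, and rows are the gene lists. In SW620 AVPR2, at -1.98, lies lowest and AKAP12, at 3.38, highest of the filled points.

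Between the untreated lines some genes around the 10 differed by a larger fold than any of the 10. The counts here stand beside 65.6% of all tested genes that passed, 33.0% higher and 32.6% lower in SW620. All 5 tested PKA subunits and inhibitors outside the 10 passed, 3 higher and 2 lower in SW620, with log2 fold changes from -4.90 to 7.77. The inhibitor PKIG was lower, with 1.47 and 2.05 CPM in SW620 controls against 49.3 and 56.1 CPM in SW480 controls (log2 fold change -4.90 ± 0.20, adjusted p = 1.52e-12, edgeR). Another inhibitor, PKIA, was higher (1.91, adjusted p = 3.47e-06, edgeR). The inhibitor PKIB was also higher in SW620, at 7.77, the widest difference of the 5, and is named after its value was seen. The kinase PRKX, related to the PKA catalytic subunits, was higher in SW620, with 50.6 and 47.9 CPM in SW620 controls against 13.3 and 12.1 CPM in SW480 controls (1.95 ± 0.14, adjusted p = 1.59e-09, edgeR). Of the alpha subunits 4 of 6 passed, all lower in SW620, with GNAS at -1.95 ± 0.13 (adjusted p = 1.15e-09, edgeR) and the related GNAL at -4.13 ± 0.16 (adjusted p = 9.46e-13, edgeR). Of 11 tested Gs-coupled receptors 2 were higher and 7 lower in SW620, such as VIPR1, the receptor for vasoactive intestinal peptide, with 0.61 and 1.15 CPM in SW620 controls against 20.2 and 17.9 CPM in SW480 controls (-4.42 ± 0.28, adjusted p = 3.37e-10, edgeR). Of the 7 tested effectors and exporters 3 were higher and 1, RAPGEF3, was lower in SW620. RAPGEF3 was at 4.86 and 4.66 CPM in SW620 controls against 123 and 106 CPM in SW480 controls (-4.59 ± 0.17, adjusted p = 6.70e-13, edgeR). The higher ones were RAPGEF4 (1.56, adjusted p = 9.52e-08), POPDC3 (1.94, adjusted p = 1.87e-06) and POPDC2 (1.87, adjusted p = 0.0136, edgeR). The POPDC2 call was lost with DESeq2 (0.0640). It was also lost without replicate 2 of the SW480 controls (log2 fold change 1.32) or replicate 2 of the SW620 controls (1.82). Genes on the opposite strand share 26.8% of the exon bases of GNAL (MPPE1), 15.2% of those of RAPGEF3 (RPAP3-DT) and 11.4% of those of VIPR1 (VIPR1-AS1). COX17, on the same strand, shares 15.7% of those of POPDC2. The part of these overlapping genes in the differences was not tested.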

How the data were processed

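Poly-A RNA of 8 libraries was sequenced in single-end reads of 75 bases from RNA with an integrity number of at least 8, per the labels' protocols. The authors deposited raw counts of reads per Ensembl gene for each library. The hg38 genome, featureCounts 2.0.5, STAR 2.7.3a and Trim Galore are named, per the submitters' processing notes. The strand setting and annotation release are not given in the sources used here.

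Groups came from the labels. Of 62649 gene IDs, 62625 were matched to symbols and 58225 to GENCODE 29, which gave positions and exon lengths. Genes passing filterByExpr (17671) were tested in R 4.3.3 with edgeR 4.0.16. The libraries were scaled by TMM and fitted with 4 group means by robust quasi-likelihood, with Benjamini-Hochberg adjustment and a threshold of 0.05. With 1 spread estimated for all groups, the biological coefficient of variation came to 10.5%. The 2 libraries of a group differed by a chi-square per degree of freedom of 42.1 in SW480 with caffeine and 21.1 in SW480 controls. In SW620 it was 10.7 with caffeine and 2.97 in controls. The shared spread thus covers unlike groups. Levels are TMM-scaled CPM. The fit was tested on simulated data.

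The 10 genes and the lists were chosen with earlier results of these data known. All 10 are named in each comparison, up to 4 called genes per other list by adjusted p, the neighbours of AVPR2, and the 3 genes of most similar pattern for genes whose group means span at least 1 in log2 CPM. Of the lists' entries 2 had no ID of their own, AKAP2 and POPDC1, being other names of PALM2AKAP2 and BVES.

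Alternatives were DESeq2 size factors, limma-voom (limma 3.58.1), DESeq2 1.42.0 (Wald test), testing all genes with a count, the replicate number as a block, a separate fit of the compared groups, each library left out in turn, and the longest transcript as length. Length over exon bases shared with no other counted gene was added after the data were seen.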

Additional observations from a re-analysis of the deposited data

Results flagged for a closer look

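The 10 genes, the lists of cAMP signalling and the neighbours of AVPR2, chosen with earlier results of these data known, held 87 tested genes. For 15 of them the caffeine response in SW620 differed from that in SW480 by edgeR's test of the difference itself (values are log2, SW620 minus SW480, with adjusted p), where 6.71% of all tested genes did. One of the 10 genes was among them, PRKAR1A (0.62, adjusted p = 0.0421). The widest difference was that of the anchor AKAP12 (3.55, adjusted p = 2.01e-08), and the other anchors were PALM2AKAP2 (0.81, 0.0268) and EZR (0.58, 0.0348). Among receptors and G proteins GIPR (2.27, 4.45e-05), ADORA2B (1.37, 0.00218) and GNAI1 (-1.25, 0.000418) differed. Of the genes induced through CREB, PER1 (1.64, 0.000126), NR4A1 (1.57, 0.000355) and FOS (0.75, 0.00847) did. The exchange factors were RAPGEF2 (1.16, 0.0130), RAPGEF3 (0.97, 0.0179) and RAPGEF4 (0.79, 0.0370), and the neighbours of AVPR2 were L1CAM (1.61, 0.000365) and ARHGAP4 (-0.72, 0.0355). Calls lost with 1 library left out were those of PRKAR1A (6 of the 8 libraries), ARHGAP4 (6), PALM2AKAP2 (5), EZR (5), RAPGEF4 (5), RAPGEF2 (3), RAPGEF3 (3) and FOS (2), with adjusted p up to 0.198 for PRKAR1A, 0.179 for ARHGAP4, 0.123 for PALM2AKAP2, 0.182 for EZR, 0.162 for RAPGEF4, 0.0683 for RAPGEF2, 0.129 for RAPGEF3 and 0.0769 for FOS. EZR was also lost with the replicate block (0.0579) and RAPGEF4 with limma-voom (0.0516).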

How the results depend on the processing

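The 2 libraries per group limit all calls, and the cause of each change below was not tested. With 1 library left out, 56 to 1421 genes were called in SW480 against 636 (56 without SW480 caffeine replicate 2), 801 to 3245 in SW620 against 2537, 451 to 2188 for the difference against 1185, and 9789 to 12043 between controls against 11591. Of the 10 genes, 0 to 1 were then called in SW480, 1 to 2 in SW620, 0 to 1 for the difference and 6 to 7 between controls. No filter on low counts gave 1073 genes in SW480. The separate fits, in which the lines do not share 1 spread, gave 524 in SW480 and 4617 in SW620. PRKAR2B had too few reads to be tested in the separate fits of SW620 and of the controls, so that 6 of the 10 genes were called there between controls. Of the 228 other results for the 10 genes under the alternatives that keep all libraries of a comparison, 223 kept direction and side of the threshold. The exceptions were PRKAR2A in SW620, called in the separate fit, PRKAR1A for the difference, and PRKACA between controls, at -0.022 with DESeq2 size factors, -0.020 with no filter and -0.022 with the Wald test. With a library left out, values changed sign in SW480 for PRKAR2B (-0.33 to 0.82), PRKACA (-0.236 to 0.073) and ADCY6 (-0.475 to 0.074), for the difference for ADCY3 (-0.342 to 0.032), ADCY6 (-0.22 to 0.33), ADCY9 (-0.19 to 0.27), PRKACB (-0.268 to 0.077) and PRKAR2B (-0.28 to 1.40), and between controls for PRKACA (-0.069 to 0.041) and PRKAR1A (-0.056 to 0.213), none of them past the threshold. Replicate numbers did not pair the libraries of a line (correlation of same-numbered deviations 0.03 in SW480 and 0.01 in SW620). Between groups of different lines the correlation ran from -0.19 (SW480 controls with SW620 caffeine) to 0.02. With the replicate block, 0 of the 10 genes were called for the difference, since PRKAR1A lost its call (0.0574), and no other call among the 10 changed. Over exon bases shared with no other gene, an alternative added after the data were seen, the leading gene was kept in 11 of 12 pairs of class and group. PRKAR2B, with 1 to 15 reads a library, was limited by depth.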
